A study of Mus musculus with 19 samples.

Results

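Methylation of lysine 9 of histone H3 (H3K9) marks heterochromatin, the compact and mostly silent part of the genome. SETDB1 and the paralogs SUV39H1 and SUV39H2 write the trimethyl mark, mainly at retroviral repeats and at pericentromeric repeats, and EHMT2 (G9a) and EHMT1 (GLP) form a heterodimer that writes the mono- and dimethyl marks on genes in euchromatin. WIZ, a zinc finger protein, binds this heterodimer and helps to hold it on chromatin, and SETDB2 is a less studied relative of SETDB1. The transcripts of these 7 genes, Ehmt1, Ehmt2, Wiz, Setdb1, Setdb2, Suv39h1 and Suv39h2, were described here. They were chosen by symbol, out of 16842 genes listed in at least 1 cell set, and all 7 were listed and tested in every set.

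The study sequenced RNA of sorted mouse bone-marrow cells to ask what a mutant Asxl1 protein does together with EHMT proteins. ASXL1 acts on chromatin, and its gene is among those mutated in clonal blood cell expansions. There were 19 libraries in 6 groups, each either Asxl1 mutant (MT) or wild type (WT). CD11b-positive myeloid cells (Cd11b cells) came from mice of 4 months (young; 3 MT and 4 WT libraries) and of 18 months (old; 3 and 3), and lineage-negative, Kit-positive progenitors (LK cells) from mice of 18 months (3 and 3). The strain, the allele, the cells that carry it and any further treatment are not given in the sources used here. Nothing says that replicates of a group were separate animals, so p-values measure only the spread between these libraries, which may be technical.

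Gene counts per library were 26251822 to 38347903 in young, 41909460 to 68260809 in old and 31853263 to 59882448 in LK libraries. The sorting markers fit the labels: Itgam, which encodes CD11b, was at 1482 to 3466 CPM (counts-per-million, scaled by TMM factors) in Cd11b libraries and at 45.2 to 85.5 CPM in LK libraries, and Kit at 170 to 220 CPM in LK against 62.2 to 115 CPM in Cd11b libraries. Gene counts cannot show the Asxl1 mutation itself; total Asxl1 was 95.0 ± 2.5 CPM in LK MT and 113 ± 6.0 CPM in LK WT libraries (mean ± SD, n = 3 each), and its MT and WT means were 203 and 223 CPM in young and 291 and 291 CPM in old cells. At 18 months, replicates 2 and 3 of a group resembled each other more than replicate 1, with a chi-square per degree of freedom over genes of 3.02 to 6.74 between them and of 14.6 to 47.6 in pairs with replicate 1. The young libraries stood apart from the others by 7SK RNA, a small nuclear RNA, at 6124 to 11880 CPM of gene counts before scaling against 3.33 to 5.37, and by sex, since 5 of the 7 held Xist and no Y-linked counts to speak of, whereas all 12 libraries of 18 months held Y-linked counts.

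Ehmt1 lies on chromosome 2 (chr2:24789928-24919614, minus strand) and Suv39h2 on the same chromosome (chr2:3455815-3475031, minus), 128.4 and 149.9 Mb from Asxl1. Ehmt2 (chr17:34898469-34914052, plus) and Wiz (chr17:32354055-32389439, minus) share chromosome 17. Setdb1 lies at chr3:95323525-95357202 (minus), Setdb2 at chr14:59402009-59440884 (minus) and Suv39h1 on the X chromosome at chrX:8061171-8074760 (minus). These are gene bounds of the mm10 build, from GENCODE. Suv39h2 overlaps Dclre1c on the opposite strand over 8316 bases. The kit kept strand, but whether counting used it is not given in the sources used here, so reads of that pair may not be told apart.

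Levels were compared between genes as CPM per kb of the longest annotated transcript. Ehmt2 was the highest member in all 6 groups, at 43.0 ± 1.2 CPM per kb in LK WT, 28.6 ± 2.5 in young WT and 23.8 ± 0.86 in old WT libraries (SD, n = 3, 4 and 3). Suv39h2 was the lowest in all 6, at 4.52 ± 0.40 CPM per kb in LK WT, 1.76 ± 0.40 in young WT and 0.889 ± 0.066 in old WT libraries. Suv39h1 was second, at 41.4 ± 0.42 in LK WT and 16.7 ± 0.26 in old WT libraries, and Wiz stood at place 6 in Cd11b cells and at place 5 in LK cells. With the mean length over a gene's transcripts in place of the longest, Ehmt1 passed Suv39h1 in young cells and Setdb1 in old and LK cells, while the first and last places kept their genes.

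The order of the groups differed between members. Wiz was highest in LK WT (63.0 ± 2.8 CPM), then LK MT (52.9 ± 1.0), young (33.5 ± 2.2 in WT, 33.4 ± 1.9 in MT) and old cells (23.1 ± 2.0 and 22.6 ± 0.19). Ehmt2, Suv39h1 and Suv39h2 also stood highest in both LK groups, and Setdb1 did so with Cd11b groups whose ranges overlapped from one to the next. With TMM factors, Ehmt1 and Setdb2 had another order, with the young groups on top. Ehmt1 was at 66.0 ± 2.9 CPM in young MT, 64.9 ± 3.0 in young WT and 63.6 ± 3.2 in LK WT libraries, ranges that overlapped, followed without overlap by LK MT (56.7 ± 0.75) and then old cells (48.9 ± 3.0 and 47.2 ± 2.6). Setdb2 was at 25.4 ± 0.41 CPM in young MT, 23.9 ± 0.67 in young WT and 21.5 ± 0.45 in LK WT libraries, with no overlap between these neighbours. Old MT (18.8 ± 0.39), LK MT (18.4 ± 0.95) and old WT libraries (17.7 ± 1.1) overlapped. Without TMM factors LK WT had the highest mean for both genes, at 80.3 CPM for Ehmt1 and 27.1 CPM for Setdb2. Young WT and young MT were then at 63.8 and 66.9 CPM for Ehmt1 and at 23.5 and 25.7 CPM for Setdb2.

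**Figure D1:**
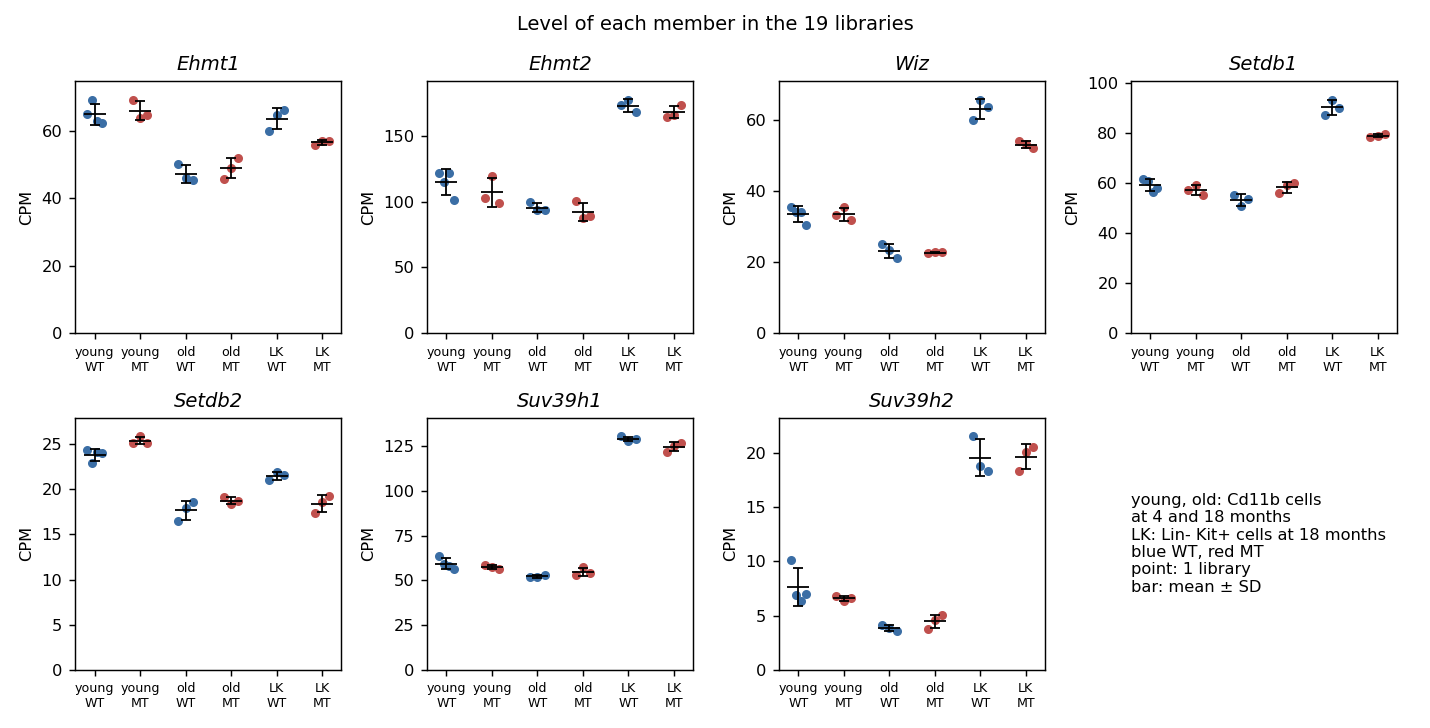
Level of each member in CPM (y axis, from 0) in the 6 groups (x axis), with 1 point per library and a bar for the mean ± SD. With TMM factors, Wiz, Ehmt2, Setdb1, Suv39h1 and Suv39h2 are highest in the LK groups. Ehmt1 and Setdb2 then reach their highest means in young Cd11b cells, and without TMM factors in LK WT libraries.

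In LK cells 4 members were lower in MT than in WT libraries by the test: Wiz, Setdb2, Setdb1 and Ehmt1. The fitted log2 fold changes of the other 3 were also below 0, and that of Suv39h2 turned sign under other settings, the removal of a length trend among them. The changes were small, from 0.20 to 0.28 on the log2 scale. In this comparison 15.9% of all 14113 genes tested were called lower and 29.8% in either direction, so calls were common among genes at large. The median log2 fold change was -0.196 over the 7 members and 0.020 over all genes tested. A gene was called at an adjusted p under 0.05 in edgeR's quasi-likelihood test, with Benjamini-Hochberg adjustment over all genes tested.

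Wiz, the partner of the EHMT heterodimer, was at 53.9, 53.0 and 51.9 CPM in the LK MT libraries and at 60.0, 65.6 and 63.5 CPM in the LK WT libraries. Every MT library was below every WT library, and Wiz fell by 0.28 on the log2 scale, with an SE of 0.052 (edgeR adjusted p = 0.00938). Ehmt1 was at 55.8, 57.1 and 57.1 CPM in MT and at 60.0, 64.7 and 66.0 CPM in WT libraries. These groups did not overlap either, and Ehmt1 fell by 0.20 ± 0.052 on the log2 scale (edgeR adjusted p = 0.0256). Ehmt2, the catalytic partner of Ehmt1, was at 165, 166 and 174 CPM in MT and at 174, 178 and 168 CPM in WT libraries. Its groups overlapped, and its log2 fold change of -0.072 ± 0.036 did not pass the test (edgeR adjusted p = 0.171).

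Setdb1, which KRAB zinc finger proteins bring to retroviral repeats through TRIM28, was at 78.6, 78.8 and 79.6 CPM in MT and at 87.4, 93.3 and 90.2 CPM in WT libraries. All MT values lay below all WT values, with a log2 fold change of -0.22 ± 0.043 (edgeR adjusted p = 0.00988). Setdb2 was at 17.4, 18.6 and 19.3 CPM in MT and at 21.0, 21.9 and 21.6 CPM in WT libraries. Again no MT library reached the lowest WT library, and Setdb2 fell by 0.25 ± 0.054 on the log2 scale (edgeR adjusted p = 0.0128).

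The pericentromeric enzymes gave smaller values. Suv39h1 was at 122, 125 and 127 CPM in MT and at 130, 128 and 129 CPM in WT libraries. The groups lay side by side without overlap, but the log2 fold change of -0.079 ± 0.033 did not pass (edgeR adjusted p = 0.104). Suv39h2 was at 18.3, 20.1 and 20.5 CPM in MT and at 21.5, 18.8 and 18.3 CPM in WT libraries, which overlapped (log2 fold change -0.023 ± 0.065, edgeR adjusted p = 0.822).

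**Figure D2:**
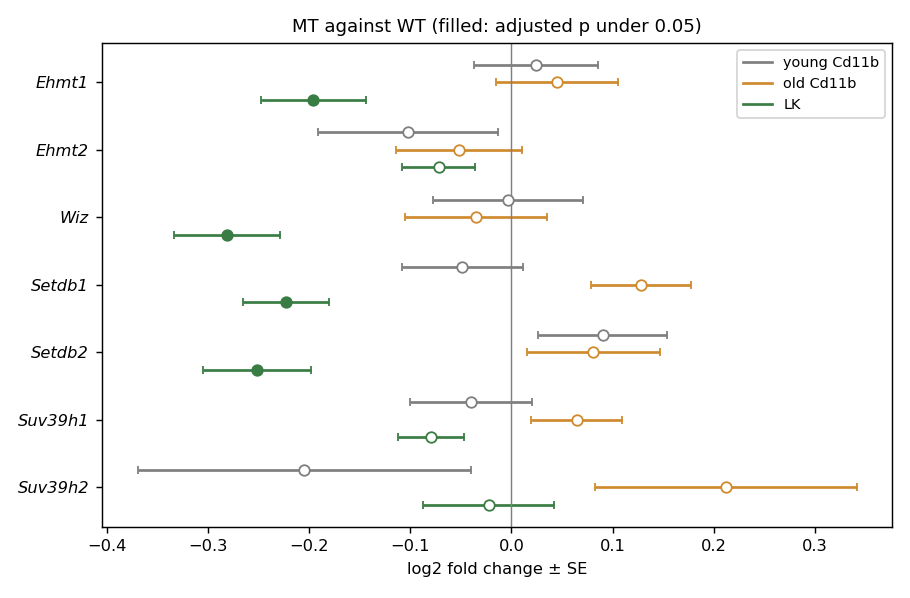
Log2 fold change of MT against WT (x axis) for each member (y axis) in young Cd11b, old Cd11b and LK cells, with bars for the SE and filled points for an adjusted p under 0.05. Filled points appear in LK cells alone, for Ehmt1, Wiz, Setdb1 and Setdb2.

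The LK calls rested on narrow margins. Without MT replicate 2, WT replicate 2 or WT replicate 3 none of the 7 was called (Wiz had an edgeR adjusted p of 0.0504, 0.0521 and 0.0505), without MT replicate 3 only Setdb2 was (0.0488), without MT replicate 1 the same 4 were, and without WT replicate 1 Ehmt2 and Suv39h1 joined them (6 in all). With replicates 2 and 3 of each group summed into 1 sample, none of the 7 was called and Wiz had an edgeR adjusted p of 0.186. None of the demethylase and partner genes described below was called then either. Calls over all genes moved with the setting too. They ranged from 3 (replicate number as a block) to 8525 (replicates 2 and 3 alone), around 4206. The loss of calls was thus not particular to the members.

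Fold changes in LK cells also moved with transcript length. The median log2 fold change over genes was 0.16 for longest transcripts of 1 to 2 kb, -0.01 for 3 to 4 kb, -0.13 for 5 to 6 kb and -0.19 for 6 to 8 kb. Wiz (6.43 kb), Ehmt1 (5.95 kb) and Setdb1 (5.65 kb) are the longest members, and Setdb2 (3.03 kb) and Suv39h1 (3.12 kb) the shortest. After a smooth trend on length and GC content was removed from each library, Wiz was at -0.094 ± 0.033 (edgeR adjusted p = 0.0747), Setdb1 at -0.078 ± 0.029 (0.0871) and Ehmt1 at -0.048 ± 0.035 (0.367), and none of these 3 was called. Setdb2 stayed called at -0.27 ± 0.055 (edgeR adjusted p = 0.014), and Suv39h1 was then called at -0.11 ± 0.029 (0.0303). Of the 4 members called without the correction, only Setdb2 was also called with it.

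**Figure D3:**
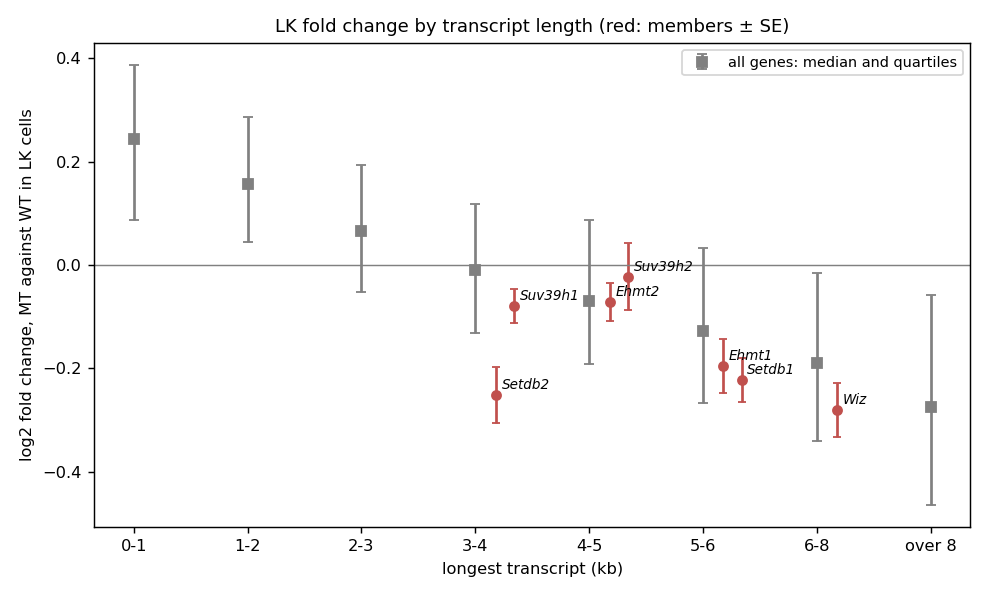
Log2 fold change of MT against WT in LK cells (y axis) by the length of the longest transcript (x axis, kb), as median and quartiles over all genes tested (grey squares) and for each member with its SE (red). Setdb2 lies below the lower quartile of genes of 3 to 4 kb, while the other 6 members lie between the quartiles of their length class.

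**Figure D4:**
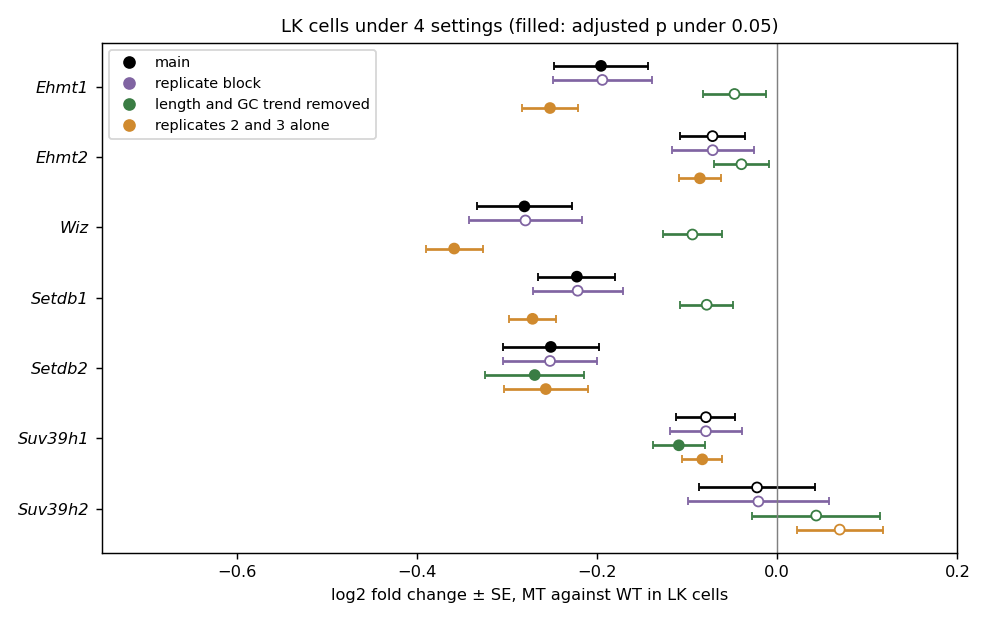
Log2 fold change of MT against WT in LK cells (x axis) with its SE for each member (y axis) under 4 settings, filled where the adjusted p is under 0.05. Removing the length and GC trend brings Ehmt1, Wiz and Setdb1 to between -0.09 and -0.05 and leaves Setdb2 at -0.27.

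Markers of other cells moved with genotype in the LK libraries. Of all 14113 genes tested, 1960 were called higher and 2246 (15.9%) lower. The marker calls were not examined under the other settings. All 9 neutrophil markers tested were higher in MT, 4 of them called, and the list's 10 markers, of which 1 was not tested, summed to 13360 to 18400 CPM in MT against 11240 to 13100 CPM in WT libraries. Of 12 genes of dividing cells, 7 were called lower and 1 higher, with sums of 4710 to 4785 CPM in MT and 5146 to 5418 CPM in WT libraries. The 8 progenitor markers summed to 935 to 1001 CPM in MT and 1013 to 1033 CPM in WT libraries, 2 of them called lower. Of 6 monocyte markers 3 were called lower (322 to 361 against 370 to 404 CPM), and of 7 erythroid markers 2 (6 of them summed to 2031 to 2063 against 2220 to 2369 CPM). All 4 T cell markers had fold changes above 0, 1 called, with sums of 5.24 to 11.2 CPM in MT and 3.60 to 7.01 CPM in WT libraries. B cell, NK cell and megakaryocyte lists had 1 marker called higher each. Fold changes were below 0 for 2 of 3 NK cell, 1 of 4 megakaryocyte and 0 of 6 B cell markers. All 4 Y-linked genes were called lower in MT (median -0.393). Hbb-bt and Trac were listed in no cell set, and no other marker of the cell type lists was at 0 in either group. The markers' part in the members' differences was not tested. In sorted bulk RNA, fewer cells of a type and less RNA per cell cannot be told apart.

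The 4 members called lower in LK cells are shown with the 250 bases before their start site, 5′ to 3′ on the strand of the gene, as the set called in 1 direction. The sequences are RefSeq's for GRCm38.p6, the assembly named mm10. Capitals mark every match, on either strand, to 8 short motifs: GGGCGG (SP1/KLF), CCGGAAG (ETS), TTGGCGC and TTCCCGC (E2F), the NRF1 palindrome, TGACGTCA (CRE), AAGATGGCG (YY1) and CCAAT. For Wiz, which has 4 listed starts, the window at the outermost start is shown.
Ehmt1 (chr2:24919610-24919859, minus): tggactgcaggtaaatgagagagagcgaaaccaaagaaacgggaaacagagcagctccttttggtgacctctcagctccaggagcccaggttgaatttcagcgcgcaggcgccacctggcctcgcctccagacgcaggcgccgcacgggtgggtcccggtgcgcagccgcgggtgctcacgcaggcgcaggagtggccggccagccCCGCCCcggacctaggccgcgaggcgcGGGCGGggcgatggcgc
Wiz (chr17:32389407-32389656, minus): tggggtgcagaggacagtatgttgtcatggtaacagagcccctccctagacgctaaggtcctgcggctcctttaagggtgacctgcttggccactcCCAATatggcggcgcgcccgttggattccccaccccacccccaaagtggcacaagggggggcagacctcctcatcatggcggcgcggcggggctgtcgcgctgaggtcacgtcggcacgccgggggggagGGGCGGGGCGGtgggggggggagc
Setdb1 (chr3:95357203-95357452, minus): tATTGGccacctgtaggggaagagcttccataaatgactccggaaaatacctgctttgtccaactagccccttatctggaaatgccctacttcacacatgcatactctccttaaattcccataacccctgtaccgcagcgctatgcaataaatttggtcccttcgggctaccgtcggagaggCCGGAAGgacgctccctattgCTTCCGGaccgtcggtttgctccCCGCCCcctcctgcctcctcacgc
Setdb2 (chr14:59440881-59441130, minus): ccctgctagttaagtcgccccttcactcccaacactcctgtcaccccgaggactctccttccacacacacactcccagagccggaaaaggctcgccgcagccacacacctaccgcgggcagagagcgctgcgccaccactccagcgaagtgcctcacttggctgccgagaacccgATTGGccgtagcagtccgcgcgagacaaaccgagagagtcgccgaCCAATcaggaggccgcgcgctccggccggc
These windows held 26, 18, 13 and 24 CpG dinucleotides in that order, against a median of 6 and an upper quartile of 16 over 32851 promoters of the same length. GGGCGG was found in those of Ehmt1, Wiz and Setdb1, and CCAAT in those of Wiz, Setdb1 and Setdb2. GGGCGG is held by 32.7% and CCAAT by 33.8% of all promoters. Setdb1 alone of the 4 held CCGGAAG, at 2 places, a motif that 6.91% of promoters hold. No motif was found in all 4 windows. The matches overlap no measurement of binding and describe sequence only.

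In Cd11b cells none of the 7 members was called at either age. In young cells edgeR called 0% of 13755 genes, and 3.23% passed 0.05 without adjustment. Of the members edgeR called 0 of 7, 0 passed without adjustment, and DESeq2 called 0. Wiz was at 30.4 to 35.4 CPM in WT and 31.7 to 35.4 CPM in MT libraries, and Ehmt2 at 101 to 122 and 99.3 to 120.0 CPM. Setdb2 had the one pair of young groups that did not overlap, with 24.4, 22.9, 24.2 and 24.1 CPM in WT and 25.2, 25.9 and 25.2 CPM in MT libraries (log2 fold change 0.090 ± 0.064, edgeR adjusted p = 0.999). Suv39h2 was at -0.20 ± 0.16 (edgeR adjusted p = 0.999) and at -0.028 without WT replicate 1, which stood at 10.2 CPM where the other WT libraries were at 6.88, 6.39 and 7.02 CPM.

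In old cells edgeR called 0.336% of 13398 genes, and 16.6% passed 0.05 without adjustment. Of the members edgeR called 0 of 7, 1 passed without adjustment, and DESeq2 called 0. That member was Setdb1, at 55.9, 59.1 and 60.0 CPM in MT and 55.3, 50.7 and 53.5 CPM in WT libraries. Its MT values were all above its WT values, by 0.13 ± 0.049 on the log2 scale (edgeR adjusted p = 0.252). Suv39h2 was at 3.80, 4.62 and 5.01 CPM in MT and 4.13, 3.83 and 3.57 CPM in WT libraries, with overlap (0.21 ± 0.13, edgeR adjusted p = 0.45). Without WT replicate 1 Setdb1 was called (0.16, edgeR adjusted p = 0.0487).

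The genotype difference was then compared between LK and old Cd11b cells by an interaction term. Both Setdb genes passed: the difference was lower in LK cells by 0.36 ± 0.071 on the log2 scale for Setdb1 (edgeR adjusted p = 0.009) and by 0.34 ± 0.082 for Setdb2 (0.0155). In this test 12% of 13996 genes were called lower and 20.7% in either direction. Ehmt1 (-0.25 ± 0.087, edgeR adjusted p = 0.0596) and Wiz (-0.25 ± 0.090, 0.0613) did not pass. With the length and GC trend removed, Setdb1 was at -0.17 ± 0.050 (edgeR adjusted p = 0.0441), Setdb2 at -0.34 ± 0.081 (0.0209) and Suv39h1, then also called, at -0.18 ± 0.054 (0.0486). With replicates 2 and 3 summed no member passed. One member passed without LK MT replicate 2, LK WT replicate 2 or LK WT replicate 3, and 4 passed without replicate 1 of LK WT, old WT or old MT. Between the ages of Cd11b cells, the genotype difference of 0 of 7 members changed by edgeR's test, with 1 passing without adjustment and 0 called by DESeq2. Over all 14024 genes, 0.0214% were called and 7.38% passed without adjustment.

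Cell types were compared within each genotype. Against old Cd11b cells of the same genotype, LK cells had more of all 7 members in WT, all called, and of 6 in MT, also called. Calls were the rule here: 86.8% of 13710 genes were called in WT, 45.1% higher, and 87.8% of 13828 in MT, 45.9% higher. Suv39h2 differed most, by 2.25 ± 0.095 on the log2 scale in WT and 2.04 ± 0.11 in MT (edgeR adjusted p = 5.68e-08 and 4.47e-08). Its LK libraries were at 18.3 to 21.5 CPM and its old Cd11b libraries at 3.57 to 5.01 CPM, with no overlap. Wiz was higher in LK cells by 1.36 ± 0.077 in WT and 1.13 ± 0.043 in MT, and Suv39h1 by 1.21 ± 0.044 and 1.09 ± 0.040. Ehmt2 gave 0.76 in both genotypes, with SE of 0.049 in WT and 0.058 in MT.

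Setdb1, Ehmt1 and Setdb2 differed least between the cell types. Setdb1 was higher in LK cells by 0.67 ± 0.057 in WT and 0.34 ± 0.038 in MT, and Ehmt1 by 0.34 ± 0.067 and 0.11 ± 0.048 (edgeR adjusted p = 0.00145 and 0.0456). Setdb2 was higher by 0.19 ± 0.067 in WT (edgeR adjusted p = 0.0266) and at -0.12 ± 0.061 in MT (0.078). The values of Setdb2 and Ehmt1 depended on the processing. Setdb2 in WT was not called by DESeq2 (0.11, adjusted p = 0.212), with the length and GC trend removed (0.054, edgeR adjusted p = 0.444), or without old WT replicate 1 or 2 or LK WT replicate 2 or 3. Setdb2 in MT was called lower by DESeq2 (-0.22, adjusted p = 0.00764) and with the trend removed (-0.24, edgeR adjusted p = 0.00397), while its CPM without TMM factors was 22.2 in LK MT and 15.3 in old MT libraries, the opposite order. Ehmt1 in MT was at 0.022 by DESeq2 (adjusted p = 0.761) and at 0.48 with the trend removed (edgeR adjusted p = 7.87e-06), and it was not called without old MT replicate 1 or 2 or LK MT replicate 2 or 3. Setdb1 in MT was at 0.74 with the trend removed. Of the 12 genes of dividing cells, 11 were also called higher in LK than in old Cd11b cells of WT, and the list summed to 5146 to 5418 against 2927 to 2976 CPM. Their part in the members' levels was not tested.

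The ratio of Ehmt2 to Ehmt1 CPM was higher in LK libraries. It was 2.73 ± 0.18 in LK WT and 2.97 ± 0.064 in LK MT libraries (SD, n = 3). It was 2.03 ± 0.037 in old WT, 1.90 ± 0.25 in old MT, 1.78 ± 0.16 in young WT and 1.63 ± 0.21 in young MT libraries. All 6 LK libraries, at 2.55 to 3.04, lay above all 13 Cd11b libraries, at 1.49 to 2.19. Ehmt1 has the longer transcript, and a length trend that differs between libraries moves this ratio. With the trend removed, LK cells were above old Cd11b cells by 0.75 (WT) and 0.74 (MT) on the log2 scale for Ehmt2 and by 0.51 and 0.48 for Ehmt1, a smaller gap between the genes than without it.

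**Figure D5:**
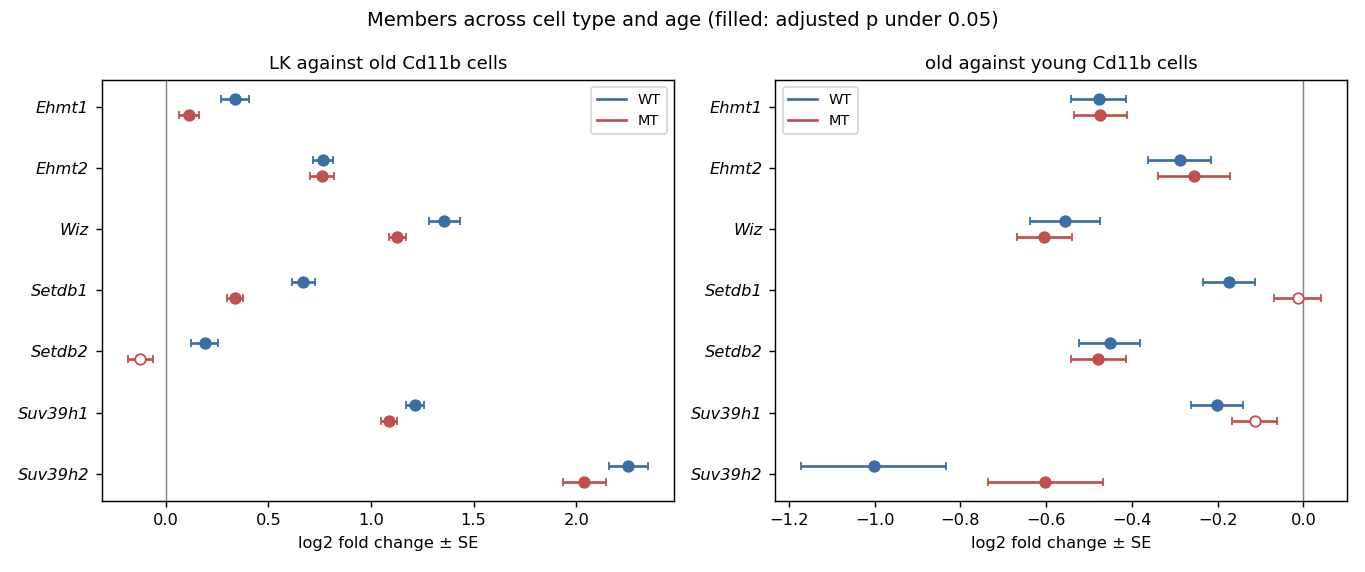
Log2 fold change (x axis) with its SE for each member (y axis), LK against old Cd11b cells on the left and old against young Cd11b cells on the right, in WT (blue) and MT (red), filled where the adjusted p is under 0.05. Suv39h2, Wiz and Suv39h1 lie farthest from 0 by cell type, from 1.09 to 2.25, and every member lies below 0 with age, Setdb1 in MT at -0.013.

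Old Cd11b cells had less of most members than young ones, but age and library make-up cannot be told apart in this contrast, and sex differed between most of the libraries. In WT all 7 were called lower and in MT 5, where 73.1% of 13719 and 71.7% of 13584 genes were called, 36.9% and 36.5% lower. Suv39h2 had a log2 fold change of -1.002 ± 0.17 in WT (edgeR adjusted p = 3.01e-04) and at -0.60 ± 0.13 in MT (0.00285). Wiz was at -0.56 ± 0.081 and -0.60 ± 0.064, Ehmt1 at -0.48 ± 0.065 and -0.47 ± 0.063, and Setdb2 at -0.45 ± 0.072 and -0.48 ± 0.064. In MT, Setdb1 (-0.013 ± 0.055) and Suv39h1 (-0.11 ± 0.053) were not called. All old libraries held Y-linked counts, as did 1 young library per genotype, WT replicate 4 and MT replicate 3. A term for sex thus set the old libraries against that 1 young library. With it, Ehmt1 was at -0.42 in WT and -0.45 in MT, Wiz at -0.42 and -0.53, and Setdb2 at -0.46 in both. Suv39h2 was at -0.89 and -0.61, Ehmt2 at -0.10 and -0.14, Setdb1 at -0.14 and 0.045, and Suv39h1 at -0.13 and -0.087. The Setdb1 call in WT was lost without young WT replicate 1 or 2 or old WT replicate 2 or 3, that of Suv39h1 in WT without old WT replicate 2, and that of Ehmt2 in MT without young MT replicate 2 or old MT replicate 2 or 3. In WT, median fold changes with age ran from 0.32 for genes of 1 to 2 kb to -0.69 for genes over 8 kb. Once this trend was taken out of each library, the log2 fold change of Wiz was -0.16 in WT and -0.23 in MT, Ehmt1 at -0.15 and -0.17, all still called, while Ehmt2 was not called in either genotype (-0.077 and -0.070). Setdb2 was at -0.50 and -0.54, and Setdb1 turned to 0.062 ± 0.053 in WT and was called higher in MT (0.20 ± 0.050, edgeR adjusted p = 0.00551).

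Of the enzymes that remove H3K9 methylation, some were also lower in LK MT libraries. All 11 demethylase genes tested had log2 fold changes below 0 and 6 were called lower, with a median of -0.205. Of all 14113 genes tested, 15.9% were called lower. Jmjd1c fell from 115 ± 13 to 76.8 ± 4.2 CPM (-0.61 ± 0.096 on the log2 scale, edgeR adjusted p = 0.00733), Kdm3b from 109 ± 9.2 to 85.6 ± 1.4 (-0.38 ± 0.071), Kdm3a from 47.9 ± 1.4 to 40.1 ± 1.7 (-0.28 ± 0.054) and Kdm4a from 79.1 ± 4.2 to 70.1 ± 0.98 CPM (-0.21 ± 0.055). With the length and GC trend removed 5 of the 11 were called, and with replicates 2 and 3 summed 0 were. Leaving out 1 library gave 1 (WT replicate 2), 2 (WT replicate 3), 3 (MT replicate 2 or 3), 6 (MT replicate 1) or 10 (WT replicate 1). These counts come from the same libraries as those of the members.

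Of 21 partners and recruiters of the writers, 8 were called lower and 1 higher in LK cells, with a median of -0.082. In this comparison 15.9% of all 14113 genes tested were called lower and 29.8% in either direction. Rcor1, a scaffold of the LSD1 corepressor complex, fell from 67.5 ± 10 to 39.6 ± 2.6 CPM (-0.80 ± 0.12 on the log2 scale, edgeR adjusted p = 0.00705). Mga, of the E2F6 and G9a-containing repressor complex, fell by 0.49 ± 0.084, Dnmt1, the maintenance DNA methyltransferase, by 0.37 ± 0.061, and Zfp644, a zinc finger protein that binds G9a with WIZ, by 0.30 ± 0.058. Gfi1, a repressor that guides granulocyte development, rose by 0.34 ± 0.10 (edgeR adjusted p = 0.0384). These values moved over 17 alternatives, the removal of the length and GC trend among them. The smallest changes in size were -0.64 for Rcor1, -0.18 for Mga, -0.22 for Dnmt1, -0.12 for Zfp644 and 0.25 for Gfi1. The 9 calls became 0 with replicates 2 and 3 summed, 3 without MT or WT replicate 2, 5 without MT or WT replicate 3, and 12 without WT replicate 1. Among 10 other writers Setd2, which writes trimethyl H3K36, was the one called, at -0.38 ± 0.074 (edgeR adjusted p = 0.0104). That count was 0 with replicates summed or when MT replicate 2 or 3 or WT replicate 2 was left out. It was 3 when MT replicate 1 and 4 when WT replicate 1 was left out. Setd2 itself was at -0.11 where its change was smallest over the 17 alternatives. In Cd11b cells edgeR called 0 of the 45 genes of the 4 lists tested at the young age, with 2 passing without adjustment, and 0 of 42 at the old age, with 8. DESeq2 called 0 of them at the young and 1 at the old age. Over all genes tested, edgeR called 0% in young and 0.336% in old cells, and 3.23% and 16.6% passed without adjustment.

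As another readout, genes and repeats that these enzymes are known to silence were examined. Of 14 such genes, 4 were listed in LK cells and 1 was called, where 29.8% of all genes tested were called. Fbp1, a gluconeogenic enzyme, rose from 9.38 ± 0.24 to 13.05 ± 1.9 CPM in MT (0.45 ± 0.099 on the log2 scale, edgeR adjusted p = 0.0146). It was not called with the length and GC trend removed, with replicates summed, or without MT replicate 2 or 3 or WT replicate 2 or 3. Among 24 repeat subfamilies, counted as transposable element (TE) transcripts, 11 were called in LK cells, 5 higher and 6 lower, where 20% of 813 subfamilies were called. Their median log2 fold change was 0.01.

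The repeats did not move one way. MMETn-int, an internal part of an early transposon, fell from 1405 to 882 CPM (-0.67 ± 0.083 on the log2 scale, edgeR adjusted p = 2.26e-05), RLTR4_MM-int from 1056 to 764 CPM (-0.47 ± 0.092), MERVL-int from 29.1 to 20.5 CPM (-0.50 ± 0.10) and ETnERV-int from 41.8 to 28.5 CPM (-0.55 ± 0.11). RLTR10C, a long terminal repeat, rose from 6.38 to 10.46 CPM (0.71 ± 0.11, edgeR adjusted p = 1.72e-04), L1Md_F2, a LINE subfamily, from 273 to 347 CPM (0.34 ± 0.069), IAPLTR1a_Mm from 8.68 to 11.4 CPM (0.39 ± 0.091) and IAPLTR2a from 2.80 to 4.20 CPM (0.60 ± 0.15). Without LK WT replicate 2 the count was 6 of 24. In young cells edgeR called 0 of 24, with 0 at an unadjusted p under 0.05, and in old cells 0 of 24, with 3, and DESeq2 called 0 at both ages. Over all subfamilies 0% of 973 were called in young and 0.458% of 873 in old cells. Without old WT replicate 1, 5 were called in old cells. No length trend was removed from TE counts, and replicates 2 and 3 were not summed for them.

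The genes most like each member were found by Pearson correlation of log2 CPM over the 19 libraries, among 10517 genes with a mean of at least 1 CPM in every group. The libraries differ in cell type and age, so genes that differ alike between groups reach high values, and the correlations are descriptions. Wiz was most like Ift140 (r = 0.996), Wdr59 (0.996) and Naa25 (0.994), and Ehmt2 most like Tcf3 (0.99), Armc5 (0.99) and Plbd2 (0.987). Ehmt1 was most like Huwe1 (r = 0.976), Rttn (0.973) and Hcfc1 (0.971). Setdb1 was most like Ubap2l (r = 0.989), Tubgcp3 (0.988) and Dhx15 (0.984), and Setdb2 most like Slc4a7 (0.953), Maml3 (0.947) and D15Ertd621e (0.947). Suv39h1 was most like Rbbp7 (r = 0.999), Cct2 (0.998) and Ubac1 (0.998), and Suv39h2 most like Tfrc (0.994), Tex10 (0.993) and Odc1 (0.992).

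Among the members themselves, Ehmt2 and Wiz correlated at r = 0.97, Setdb1 and Suv39h1 at 0.97, and Ehmt1 with Ehmt2 at 0.42 over the 19 libraries. Setdb2 correlated with Ehmt1 at 0.81 and with the other 5 at -0.14 to 0.18. After group means were removed, Ehmt2 and Wiz were at 0.64 and Ehmt1 and Ehmt2 at -0.11. Setdb1 and Suv39h1 were then at 0.48, and Setdb2 and Ehmt1 turned to -0.4. All these correlations used CPM with TMM factors and were not computed without them. The low values of Setdb2 may depend on these factors. Without TMM factors, Setdb2 had its highest mean in LK WT libraries (27.1 CPM), as did Setdb1 (114 CPM).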

How the data were processed

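For each of the 19 libraries the authors deposited raw counts by gene symbol and by TE subfamily. Each cell set lists its own genes. Per the submitters' processing notes, STAR, HTSeq, DESeq2 and mm10 were used, with no role or version given. RNA libraries were made with a directional kit, per the labels' protocols. Groups and replicate numbers came from the sample titles.

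Counts were tested with edgeR 4.0.16 in R 4.3.3 (filterByExpr, TMM factors, quasi-likelihood test with robust dispersion), fitted on the groups compared and the genes listed in all sets compared, with Benjamini-Hochberg adjustment over all genes tested and a threshold of 0.05. There were 9 gene comparisons. The SE is the log2 fold change divided by the square root of F. TE counts took library sizes and TMM factors from gene counts. CPM used TMM factors over all 19 libraries, which were 0.966 to 1.04 in young, 0.805 to 0.833 in old and 1.18 to 1.29 in LK libraries. Correlations used log2(CPM + 0.5). Transcript length and GC content came from GENCODE vM21 and were found for 95.7% of symbols. The length and GC trend was a spline with 5 degrees of freedom per property. A library counted as Y-linked above 5 CPM of Y-linked genes. The fits were tested on simulated data.

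The members and the gene lists were chosen with earlier results of these data known. Named are the 7 members, up to 4 called genes per direction and list with the smallest adjusted p, and the 3 genes most like each member. Alternatives were DESeq2 1.42.0, RLE factors, all genes kept whatever their count, a replicate block, the length and GC trend, 1 fit of all libraries, a sex term, replicates 2 and 3 summed and each library left out. Replicate subsets and same-sex libraries were added after seeing the data.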

Additional observations from a re-analysis of the deposited data

Results flagged for a closer look

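Suv39h2 in young WT replicate 1 stood at 10.2 CPM, farther from the other 3 libraries of its group than the range of 4 libraries usually allows. Such a rule marks about 1 in 20 groups by chance, and it was applied to 7 members in 1 group.

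The MT against WT difference of Setdb1 and of Setdb2 differed between LK and old Cd11b cells by the interaction test, by -0.36 and -0.34 on the log2 scale. In both genes the MT libraries had the lower levels in LK cells, while in old Cd11b cells neither difference was called.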

How the results depend on the processing

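In LK cells 4 members were called. The count was 2 with the length and GC trend removed, 0 with replicates 2 and 3 summed, 0 with replicates 1 and 2 alone or 1 and 3 alone, and 0 to 6 with each library left out. The replicate block gave 0 there, and 0 together with the trend. The block also gave 0 for the demethylases (6 called), the partners (9) and the other writers (1), where replicates 2 and 3 alone gave 10, 16 and 7. Same-numbered libraries did not deviate together (correlations of -0.355 to -0.15 in LK cells), so the numbers were not taken as pairs. In old cells (0 called) 4 were called with replicates 2 and 3 alone and 0 to 1 with a library left out. In the interaction with cell type (2 called) the count was 1 with block and trend, 0 with replicates summed, 6 with replicates 2 and 3 alone and 1 to 4 with a library left out. With age in WT (7 called) the sex term moved the count, but that fit rested on 1 young library. Target TE counts (11 in LK, 0 in old cells) were 6 to 15 and 0 to 5 with a library left out, and were not examined with replicates summed. Over all genes, the calls ranged from 3 (block) to 8525 (replicates 2 and 3 alone) around 4206 in LK cells, from 0 (block) to 5165 (replicates 2 and 3 alone) around 45 in old cells, from 0 to 69 (libraries of 1 sex) around 0 in young cells, from 0 (replicates summed) to 7334 around 2904 for the interaction with cell type, and from 0 to 65 (DESeq2) around 3 for that with age. Log2 fold changes that turned sign were small except for Setdb1 with age, and the cause was not tested. Wiz in young cells (-0.0033) was at 0.0163 with the trend removed, 0.0105 with the sex term and -0.0455 to 0.0342 with a library left out. Left-out libraries gave -0.0069 to 0.0646 for Ehmt1 and -0.0638 to 0.0036 for Suv39h1 in young cells and -0.1005 to 0.0252 for Wiz in old cells. With replicates 2 and 3 alone Wiz in old cells was at 0.0258, and with replicates 1 and 2 alone Ehmt1 at -0.0265. Suv39h2 in LK cells (-0.0225) was at 0.0432 with the trend removed, 0.0450 with block and trend, 0.0062 in 1 fit of all libraries, 0.0693 with replicates 2 and 3 alone and -0.0649 to 0.0165 with a library left out. Ehmt2 in the interaction with cell type (-0.0267) was at 0.0047 in 1 fit of all libraries and -0.0616 to 0.0330 with a library left out. Setdb1 with age in WT (-0.1729) was at 0.0624 with the trend removed and 0.0503 with block and trend. Setdb1 with age in MT (-0.0131) was at 0.0026 with RLE factors, 0.0021 by DESeq2, 0.2017 with the trend removed, 0.2020 with block and trend, 0.0279 in 1 fit, 0.0451 with the sex term, 0.0206 with replicates 2 and 3 alone and -0.0276 to 0.0206 with a library left out.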
